A study of Mus musculus with 12 samples.

Results

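Liver iNKT1 cells were compared with thymic iNKT1 cells in mice whose T-bet-expressing cells had lost a floxed Ets1 gene. The comparison took the 3 liver and the 3 thymus libraries of these animals, 6 of the 12 libraries of the study, and every gene with a normalised value of at least 10 in at least 3 of those 6 libraries. That left 11740 of the 14004 genes in the deposited table, and 2264 fell below the limit. At the edge of the limit, the third-highest value was 10.25 for Ccdc62, which was kept, and 9.79 for Hist1h2ag, which was left out.

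All cells were sorted as primary CD1d-tetramer+ YFP+ iNKT1 cells, from thymus or from liver. The conditional knockout, called cKO here, had the genotype Tbx21Cre Ets1F/F Rosa26-YFP+, and the control was Tbx21Cre Rosa26-YFP+, so that both carried the Cre and the YFP reporter. Tbx21Cre is active in cells that express T-bet (Tbx21), so Ets1 is deleted only once a cell has turned that gene on, and YFP marks cells with a history of Cre activity. Each of the 4 groups had 3 libraries, described by the submitters as independent. The labels give no age or sex and do not say whether each library came from its own mouse, so p-values measure the spread between these libraries, and in sorted bulk cells fewer cells of a kind and less RNA per cell cannot be told apart.

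Invariant NKT cells are T cells with a nearly fixed T cell receptor that sees lipids on CD1d. The iNKT1 subset depends on T-bet, makes interferon-gamma and carries many receptors otherwise known from natural killer cells. It is found in thymus, where many of the cells are long-lived residents, and is abundant in mouse liver, where the cells patrol the sinusoids. Ets1 is the founding member of the ETS family of transcription factors, which bind DNA around a GGAA core, and is needed for normal T cell and NKT cell development.

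Ets1 itself was checked first. Its value in the cKO liver libraries, given here and below in the order of replicates 1, 2 and 3, was 3594, 4425 and 5787, and in the cKO thymus libraries 11817, 7069 and 5788. The control libraries lay between 15910 and 18773 in liver and between 19493 and 28051 in thymus, so every cKO library was below every control library. The values are per gene and not per exon, so transcripts of intact and of deleted alleles cannot be told apart in them. Ets1 signal remained in all cKO libraries. It tended to be lower in cKO liver than in cKO thymus, with a fitted log2 difference of -0.80 ± 0.28 (SE, n = 3 and 3) that did not pass after adjustment (unadjusted p = 0.0096, adjusted p = 0.34), and the nearest liver and thymus libraries were at 5787 and 5788. Whether this difference in the remaining Ets1 signal bears on the tissue comparison was not tested. Tbx21 values overlapped, at 6321, 4831 and 4267 in cKO liver and 4285, 3673 and 6832 in cKO thymus, with a log2 difference of 0.09 ± 0.44 (adjusted p = 1).

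**Figure D1:**
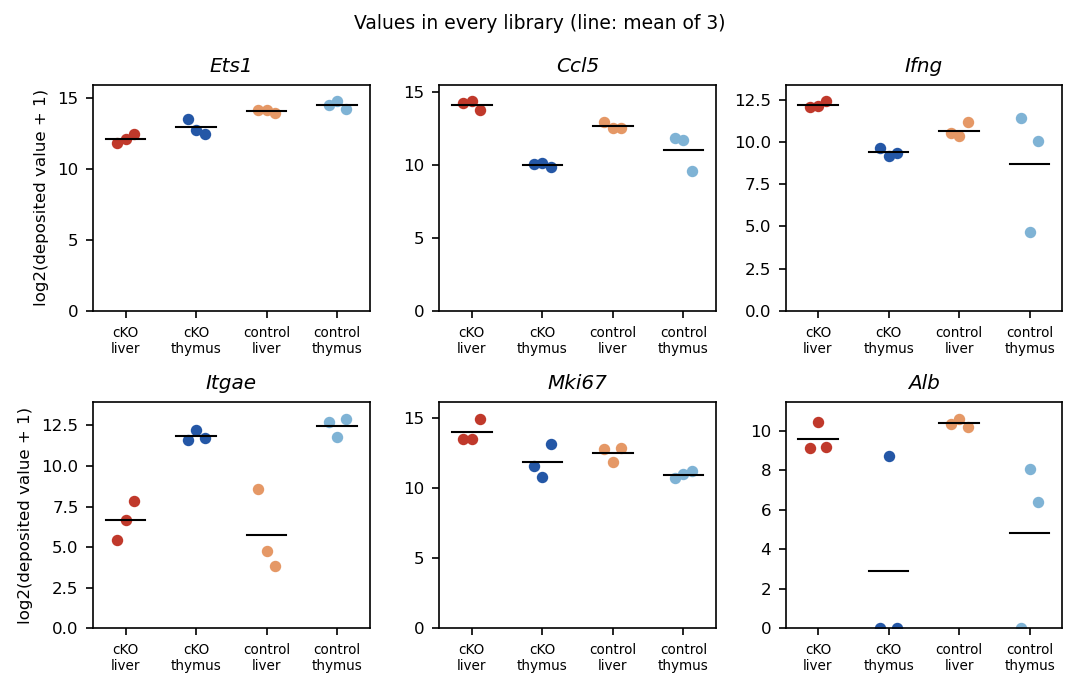
Normalised values of 6 genes in all 12 libraries on a log2(value + 1) axis that starts at 0, 1 point per library and a line at the mean of each group of 3 on this log scale. Ccl5 is higher and Itgae lower in all 3 cKO liver libraries than in all 3 cKO thymus libraries, Ets1 is lower in every cKO library than in every control library, and Alb, a hepatocyte transcript, is present in all liver libraries but near 0 in 3 of the 6 thymus libraries.

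The libraries differed in depth and in traces of other cells. Read totals recovered from the deposited values were 24424256 to 43435706 for 5 of the 6 cKO libraries and 3205426 for cKO liver replicate 2, where a single read is worth 6.663 units of normalised value, against 0.615 to 1.027 in the other cKO libraries. Of 14 genes of T and iNKT cell identity, all 14 were tested and 0 passed, with a median log2 difference of -0.02; Cd3e, a chain of the T cell receptor complex, was at 26736 to 49862 in cKO liver and 22216 to 44691 in cKO thymus. Hepatocyte markers went with the liver: 16 of 23 were in the table, 7 were tested, all 7 were higher in cKO liver (5 of them at an unadjusted p under 0.05, 0 after adjustment), and their median log2 difference was 6.30 (3.23 without cKO liver replicate 1). The summed hepatocyte value was 1370 to 2070 in the cKO liver libraries and 23.7 to 469 in the cKO thymus libraries, which is 0.00514% to 0.0097% and 9.44e-05% to 0.00193% of each library's total. Of the 16 markers, 8 had 0 reads in all 3 cKO thymus libraries. A marker near 0 in thymus is tested only if all 3 liver libraries reach a value of 10. The shared direction of the 7 and their median were therefore largely set by that limit, whereas the summed values take all 16 markers. Over the 29 alternative fits the median ran from 2.93 to 8.27, and at most 2 members were lower in liver. Alb reached 567, 1394 and 588 in cKO liver and 0.00466, 424 and 0 in cKO thymus. The part of these transcripts in the differences below was not tested.

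Between the tissues 35 of 11740 genes differed at an adjusted p under 0.05 (limma on log2 of value + 1, 0.298% of the genes tested), and these are said to be called, 17 higher in liver (0.145%) and 18 lower in liver (0.153%). A median log2 difference of 0.07 over all genes tested serves as the reference for every list below. Of all genes tested, 6208 had a positive and 5532 a negative difference, which is the reference for the counts by sign. At an unadjusted p under 0.05 there were 905 genes, 7.71%, of which 492 were higher and 413 lower. In 1930 genes, 16.4%, all 3 liver libraries lay on 1 side of all 3 thymus libraries, 1020 above and 910 below, and none of the 35 called genes overlapped. The list of called genes leans on all 6 libraries. Without cKO liver replicate 1, 2 or 3 there were 8, 8 and 3 calls, and without cKO thymus replicate 1, 2 or 3 there were 7, 3 and 13. Ccl5 and Ctla2a passed in all 6 of these fits and Izumo1r in 5 of 6, while 20 of the 35, Stat4, Nabp1, Itgae, Klra5 and Itm2a among them, passed in none. The same 35 genes gave 18 calls with edgeR and 31 with DESeq2 on the recovered reads.

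**Figure D2:**
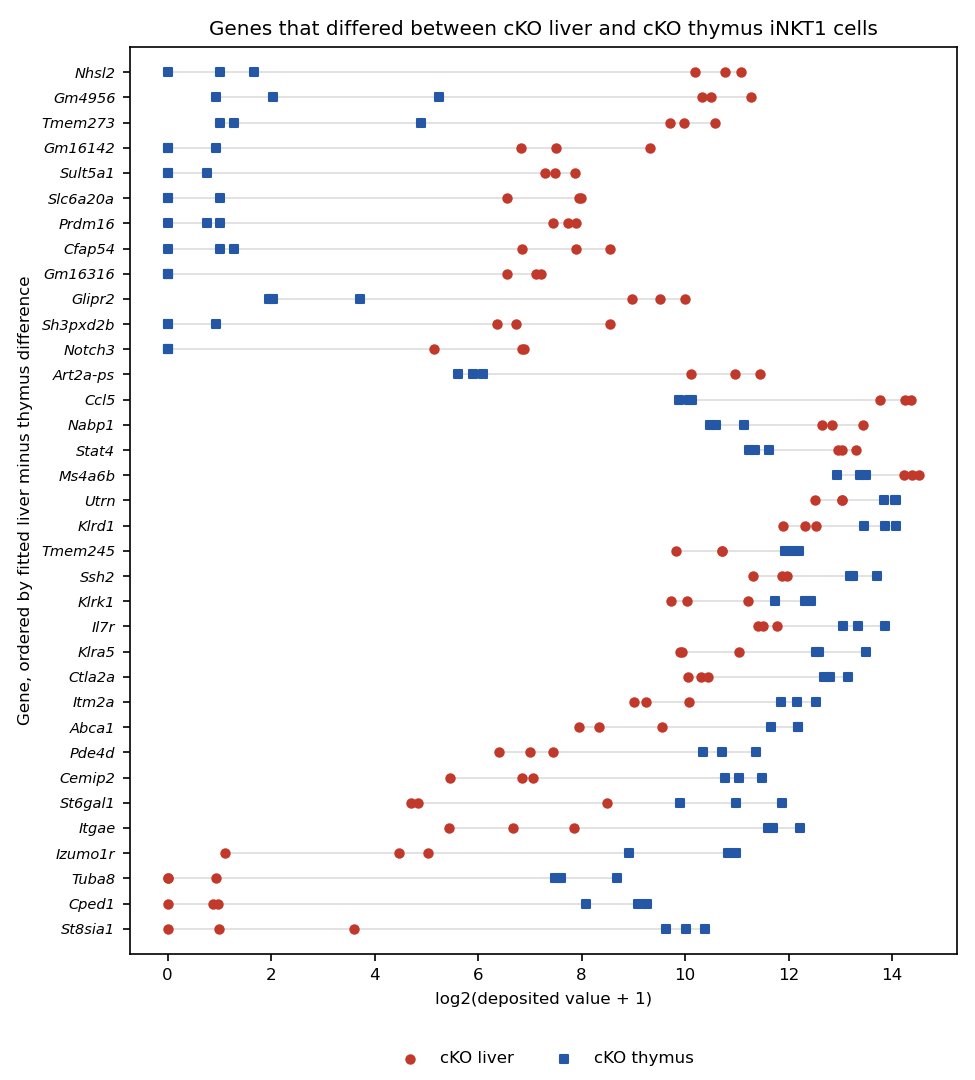
The 35 called genes by library, with log2(value + 1) on the horizontal axis and genes ordered by fitted difference, cKO liver as circles and cKO thymus as squares. The 2 tissues do not overlap for any gene, and genes such as Gm16316, Notch3, Tuba8 and Cped1 lie near 0 in all 3 libraries of 1 tissue.

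Promoter windows of 4 called genes, picked without a set rule, are shown because ETS factors often bind near start sites. Ets1 was below control in cKO cells of both tissues, and its difference between the tissues did not pass. The windows run from 250 bases before to 50 after a start site, 300 bases in all, from the RefSeq table for GRCm38.p6, written 5′ to 3′ on the gene's strand. Capitals mark each match to the ETS core GGAAG on either strand. They are Stat4 at chr1:51986898-51987197 (plus strand) and Nabp1 at chr1:51478350-51478649 (minus strand), which rose in liver, then Ctla2a at chr13:60936576-60936875 (minus strand) and Il7r at chr15:9529827-9530126 (minus strand), which fell; where a gene has several windows in the table its first is given.
Stat4: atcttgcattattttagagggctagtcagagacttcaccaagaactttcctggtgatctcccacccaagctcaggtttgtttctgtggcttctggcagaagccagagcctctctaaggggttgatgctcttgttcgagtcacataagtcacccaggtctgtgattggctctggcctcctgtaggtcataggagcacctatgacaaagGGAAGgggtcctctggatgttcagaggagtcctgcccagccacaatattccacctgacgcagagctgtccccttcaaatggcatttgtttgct
Nabp1: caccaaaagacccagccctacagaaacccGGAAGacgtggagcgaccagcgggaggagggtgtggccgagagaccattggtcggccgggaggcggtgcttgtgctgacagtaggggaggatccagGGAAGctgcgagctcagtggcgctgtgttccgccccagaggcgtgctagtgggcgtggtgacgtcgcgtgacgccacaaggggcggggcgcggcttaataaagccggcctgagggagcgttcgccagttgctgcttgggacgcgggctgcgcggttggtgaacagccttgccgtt
Ctla2a: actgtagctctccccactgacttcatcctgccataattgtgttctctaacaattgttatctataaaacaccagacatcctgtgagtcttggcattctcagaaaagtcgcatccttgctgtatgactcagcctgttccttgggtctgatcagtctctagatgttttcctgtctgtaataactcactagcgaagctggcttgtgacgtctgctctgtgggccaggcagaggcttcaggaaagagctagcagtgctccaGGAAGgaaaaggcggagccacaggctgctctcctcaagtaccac
Il7r: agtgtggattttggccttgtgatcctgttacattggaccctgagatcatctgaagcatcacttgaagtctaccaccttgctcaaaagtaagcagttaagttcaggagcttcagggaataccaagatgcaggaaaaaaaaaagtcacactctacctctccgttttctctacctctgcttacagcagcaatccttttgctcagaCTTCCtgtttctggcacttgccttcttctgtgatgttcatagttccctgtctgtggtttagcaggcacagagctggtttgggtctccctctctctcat

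The printed windows held 1 match in Stat4, 2 in Nabp1, 1 in Ctla2a and 1 in Il7r. Each printed window thus held the core, which is not typical of the called genes, as the shares below show. The core is short and common: it occurred in the windows of 73.9% of 27025 genes in the table and of 80.2% of the 8462 tested genes found in it. Of the 35 called genes, 25 had a window, and the core occurred in 6 of 10 that were higher in liver (60%) and in 6 of 15 that were lower (40%). The KLF motif CACCC occurred in 9 of those 10 and in 8 of the 15, against 65.8% of tested genes. The AP-1 motif TGANTCA occurred in 0 of 10 and in 3 of 15, against 5.81%. The E-box CACGTG occurred in 1 and 3, against 12% of tested genes, and the T-box motif GGTGTGA and the CRE TGACGTCA in 0 of the 25, against 4.12% and 3.73%; the NF-kB and CArG motifs, which 0.473% and 0.13% of tested genes hold, were also in 0. Both strands were searched, and a match or its lack describes letters in the window and nothing about binding.

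Ccl5 rose in liver more clearly than any other gene. It encodes a chemokine made by effector lymphocytes. Ccl5 (chr11:83525778-83530518) was at 19394, 21105 and 13970 in cKO liver and at 1071, 1129 and 940 in cKO thymus. Every liver library was more than 10 times the highest thymus library on this scale. The log2 difference was 4.10 ± 0.45 (adjusted p = 0.00045), the smallest adjusted p of the comparison, and it passed in all 29 alternative fits. Of 16 tested cytokine and chemokine genes Ccl5 alone passed, 11 had a positive difference and 5 a negative one, and the median was 0.84.

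Ifng, which encodes interferon-gamma, was at 4300, 4429 and 5401 in cKO liver and 782, 575 and 659 in cKO thymus. The groups were far apart, yet the difference of 2.81 ± 1.07 did not pass (adjusted p = 0.44). The fit shares its estimate of spread with the control libraries, in which thymus values ran from 24.3 to 2696. It passed in the fit to the 6 cKO libraries alone (adjusted p = 0.0034) and in the fit without control thymus replicate 2 (adjusted p = 0.0054). Xcl1, a chemokine that attracts XCR1-bearing dendritic cells, was at 592, 494 and 999 in liver and 3760, 1584 and 1803 in thymus, a difference of -1.73 ± 0.41 (adjusted p = 0.097). It lay in the other direction to Ccl5, with no overlap.

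No cytotoxic granule gene passed. Of 19 tested, 12 had a positive and 7 a negative difference, the median was 0.36, and 3 were higher and 1 lower at an unadjusted p under 0.05. Gzma, a granzyme, was at 4691, 2612 and 2933 in cKO liver and 5.14, 188 and 776 in cKO thymus, a difference of 5.10 ± 1.19 (adjusted p = 0.09). The 3 thymus libraries were spread over a wide range below all liver libraries. Gzmb was at 71896, 54843 and 46204 against 39803, 26034 and 34870, a difference of 0.78 ± 0.24 (adjusted p = 0.24). Nkg7 and Ctsd overlapped between tissues, with differences of 0.40 ± 0.28 and -0.18 ± 0.29.

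Among transcription factors of the type 1 effector program 1 of 19 passed. Stat4, which relays IL-12 signals, rose in liver (chr1:51987148-52107189): 10117, 8395 and 7929 against 2395, 3144 and 2592, a log2 difference of 1.70 ± 0.29 (adjusted p = 0.021). Its lowest liver value was well above its highest thymus value. In control cells the values were similar between tissues, at 7662 to 9647 in liver and 5409 to 11773 in thymus, with a difference of 0.06 ± 0.29, but the test of the difference between genotypes did not pass (1.65, adjusted p = 0.64). Runx3, Zfp683 (Hobit), Id2, Ikzf3 and Rora gave differences from -0.53 to 0.32 with adjusted p from 0.61 to 1. Bhlhe40 was at 3949, 3258 and 3292 against 1164, 1646 and 2589, a difference of 1.03 ± 0.39 (adjusted p = 0.43).

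Nabp1, a single-stranded DNA binding protein with a role in the DNA damage response, rose: 11121, 6436 and 7328 in cKO liver against 1545, 1420 and 2245 in cKO thymus, a difference of 2.24 ± 0.41 (adjusted p = 0.024). It was higher in liver in control cells as well (2.37 ± 0.41, adjusted p = 0.0082). Ms4a6b, a membrane protein of the MS4A family found in T cells, rose by the smallest margin of the called genes, from 10623, 7869 and 11524 in thymus to 23591, 21327 and 19249 in liver, 1.11 ± 0.21 (adjusted p = 0.028). Ms4a6b has close paralogs, and the sources used here do not say how reads shared by paralogs were counted.

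Il7r and Izumo1r, a receptor for a survival signal and a marker of restrained T cells, fell in liver. Il7r, the receptor chain for the survival cytokine IL-7, was at 3513, 2893 and 2713 in cKO liver and 10337, 14945 and 8534 in cKO thymus, without overlap. The difference was -1.86 ± 0.32 (adjusted p = 0.022). In control cells the thymus values were higher still, 27831 to 50118, and the difference was -3.47 ± 0.32 (adjusted p = 1.8e-05). Il7r was the member that passed among 28 cytokine receptors, of which 12 had a positive and 16 a negative difference with a median of -0.28, and among 17 memory and quiescence regulators (median -0.17). Il2rb, the shared IL-2 and IL-15 receptor chain, and Il12rb2 differed by -0.22 ± 0.16 and -0.35 ± 0.26 and did not pass.

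Izumo1r, the folate receptor 4 gene also used as a marker of anergic and regulatory T cells, was nearly gone in cKO liver. Its values were 1.16, 21.1 and 31.8 there and 481, 2020 and 1826 in cKO thymus, which are 42 and 5109 reads. The difference was -6.71 ± 0.97 (adjusted p = 0.0069). In control cells it was not low in liver, at 3235, 1852 and 2736, against 691, 2922 and 2272 in thymus; the test of the difference between genotypes gave -7.32 with an adjusted p of 0.17 and did not pass. It was the call among 21 inhibitory and costimulatory receptors, of which 13 were lower and 8 higher (median -0.64). Icos, a costimulatory receptor, was at 6315, 6317 and 4987 against 10180, 14276 and 13546, -1.10 ± 0.27 (adjusted p = 0.11). Cd27 differed by -0.91 ± 0.35 (adjusted p = 0.44) and Cd28 by -0.16 ± 0.23.

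Natural killer receptor genes were mostly lower in liver. Of 29 tested receptor and adaptor genes 22 had a negative and 7 a positive difference, with a median of -1.48 against 0.07 for all genes; 3 passed, all lower. The median was negative in all 29 alternative fits, from -1.56 to -0.55, the latter without cKO liver replicate 3. The summed value of the list was 31400 to 46200 in cKO liver and 62500 to 84900 in cKO thymus. A list of markers of NK cells and ILC1, which shares genes with this one, had 0 calls among 10 tested, 4 positive and 6 negative differences, and a summed value of 15400 to 23200 in liver and 20400 to 23300 in thymus; its part in the receptor values was not tested.

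Klrd1, which encodes CD94, the partner chain of the NKG2 receptors, was at 5880, 3779 and 5066 in cKO liver and 14919, 17200 and 11292 in cKO thymus. The difference was -1.56 ± 0.28 (adjusted p = 0.023). Klrk1, the activating receptor NKG2D, was at 2387, 1054 and 843 against 3404, 5497 and 5070, -1.83 ± 0.38 (adjusted p = 0.047), and its liver replicate 1 came closest to the thymus libraries. Klra5, a Ly49 receptor, was at 2103, 961 and 981 against 6189, 11527 and 5922, -2.58 ± 0.52 (adjusted p = 0.037). Of 29 alternative fits Klrd1 passed in 22, Klra5 in 19 and Klrk1 in 10. Klrk1 did not pass in the fit to the 6 cKO libraries alone, and neither Klrk1 nor Klra5 passed with edgeR. Klra genes are near-identical copies, so a read may be split among them. All 3 were lower in liver in control cells too, by -2.34, -1.71 and -4.27, and passed there. Klrb1c (NK1.1), Cd160 and Klra1 differed by -0.57 ± 0.35, -0.09 ± 0.49 and 0.10 ± 0.37 and did not pass.

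The 3 called receptor genes lie in the natural killer gene complex of chromosome 6, whose extent was set after the calls were seen, from the first to the last Klr gene other than Klrg1 (chr6:128609227-131247362, GRCm38). It holds 38 genes of the table, of which 33 were tested: 24 had a negative and 9 a positive difference, with a median of -0.93. Among its 24 Klr genes 20 were lower and 4 higher, with a median of -1.56. The called Klrd1 and Klrk1 are neighbours, and Klrc1 and Klrc2 near them were lower at an unadjusted p of 0.00084 and 0.0032 (adjusted p = 0.12 and 0.21). Ahead of Klrd1 in chromosome order, Clec2i, a lectin ligand of NKR-P1 receptors, had a positive difference of 5.12 ± 1.18 (adjusted p = 0.081). Klrb1f, an NKR-P1 receptor also ahead of Klrd1, had one of 3.02 ± 0.91 (adjusted p = 0.23). These 4 genes were picked after their values were seen.

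**Figure D3:**
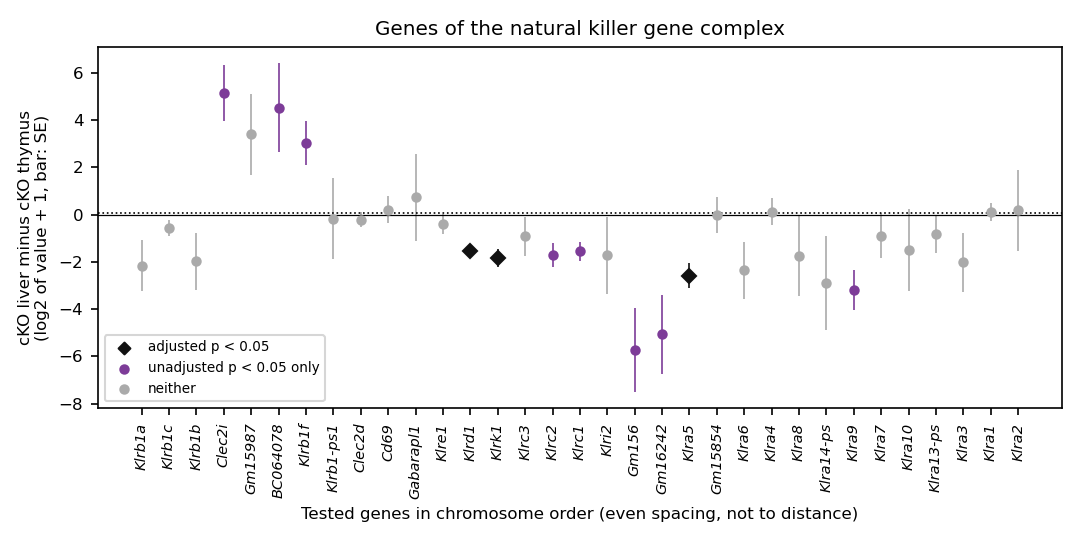
Fitted cKO liver minus cKO thymus difference (log2 of value + 1, bars are SE) for the 33 tested genes of the natural killer gene complex in chromosome order, spaced evenly. Most points lie below 0, the called Klrd1, Klrk1 and Klra5 are black diamonds, and Clec2i and Klrb1f lie well above 0; the dotted line is the median of all genes tested.

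Itgae fell in liver, and genes linked to staying in a tissue had mostly negative differences while those linked to leaving it had positive ones. Itgae encodes CD103, the integrin chain that binds E-cadherin on epithelium. Itgae (chr11:73090583-73147446) was at 42.3, 101 and 232 in cKO liver and at 3122, 4741 and 3327 in cKO thymus, a difference of -5.18 ± 0.98 (adjusted p = 0.026), and the same held in control cells (-6.75 ± 0.98, adjusted p = 0.0019). It was the call among 17 residency genes, of which 11 had a negative and 6 a positive difference (median -1.19). That median was -0.61 without cKO liver replicate 1 and -0.67, -0.73 and -0.51 without cKO thymus replicates 1, 2 and 3. The residency gene Cxcr6 was at 26129, 23166 and 23093 against 15876, 22776 and 20877 and did not pass (0.30 ± 0.21), and its tissue groups did not overlap.

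All 14 tested circulation and egress genes had a positive difference (median 0.91), and 0 passed. At most 2 members had a negative difference in any of the 29 alternative fits. Members at an unadjusted p under 0.05, chosen after their values were seen, included the sphingosine 1-phosphate receptor S1pr1, the transcription factor Klf3, the fractalkine receptor Cx3cr1 and the integrin chain Itga4. Cx3cr1 was at 1191, 1277 and 1564 in cKO liver and 7.19, 50.4 and 0.690 in cKO thymus, a difference of 7.22 ± 1.85 (adjusted p = 0.13). Itga4 was at 7579, 5604 and 6465 against 1491, 2159 and 1053, a difference of 2.11 ± 0.50 (adjusted p = 0.093). The tissues did not overlap for Cx3cr1 or Itga4. The abundant members Itgb1, Itgal and Selplg differed by 0.25 ± 0.23, 0.23 ± 0.21 and 0.56 ± 0.31.

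TGF-beta is the cytokine known to maintain CD103 on resident lymphocytes. Of 16 tested genes of its signalling list 11 had a negative and 5 a positive difference, with a median of -0.90, and 0 passed; 6 were lower and 0 higher at an unadjusted p under 0.05. The median lay between -0.98 and -0.76 in all 29 alternative fits. Skil, a feedback inhibitor of SMAD signalling, was at 2656, 721 and 2298 in cKO liver and 3486, 4908 and 5319 in cKO thymus (-1.46 ± 0.43, adjusted p = 0.21). The abundant Smad3 overlapped between tissues (-0.33 ± 0.39).

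Genes that sense extracellular ATP and NAD made up a further list, in which 1 gene was called. Art2a-ps, whose intact alleles encode an ADP-ribosyltransferase that uses NAD to modify surface proteins, rose from 58.5, 47.6 and 67.7 in cKO thymus to 2777, 1101 and 1986 in cKO liver, 4.97 ± 0.75 (adjusted p = 0.0092). Its paralog Art2b, which may share reads with it, was at 1642, 1354 and 1607 in liver and 111, 0.923 and 393 in thymus (5.12 ± 1.25, adjusted p = 0.11). P2rx7, the ATP-gated channel that this modification can open, was at 11642, 11299 and 9001 against 1642, 1732 and 2191 without passing (2.52 ± 0.99, adjusted p = 0.47). Nt5e (CD73), which makes adenosine, was lower in all liver libraries, 1730, 1926 and 1654 against 5279, 6898 and 6491 (-1.81 ± 0.43, adjusted p = 0.093). P2rx7 and Nt5e each passed in 5 of 29 alternative fits, among them the fit to the 6 cKO libraries alone. Of 13 tested genes 9 had a positive and 4 a negative difference (median 1.45), and Art2a-ps was the call. The median was 0.65 without cKO liver replicate 1, 0.87 with a filter at 50 and 0.30 with no filter on low values.

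Abca1, the pump that exports cholesterol, fell in liver. It was at 245, 754 and 321 in cKO liver and 3238, 4637 and 4620 in cKO thymus, a difference of -3.39 ± 0.54 (adjusted p = 0.012), and it was lower in control liver too (-2.71 ± 0.54, adjusted p = 0.024). The related exporter Abcg1 was at 783, 1154 and 1161 against 4288, 5457 and 3860 (-2.14 ± 0.59, adjusted p = 0.17). Mylip, a ubiquitin ligase that limits cholesterol uptake, had a difference of -1.95 ± 0.41 (adjusted p = 0.051). Of 24 tested cholesterol genes 18 had a positive and 6 a negative difference (median 0.85). At an unadjusted p under 0.05 the 6 with a positive difference included Sqle, Lss, Cyp51 and Insig1, genes of sterol synthesis and its control, and the 3 with a negative one were Abca1, Abcg1 and Mylip, all known targets of the LXR receptors. Hepatocytes also express sterol genes, and their markers were higher in the same libraries; their part in these values was not tested.

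Further genes that fell act in signalling, in the cytoskeleton and on surface glycans. Ctla2a, an inhibitor of cathepsin-like proteases, was at 1263, 1067 and 1391 in cKO liver and 6604, 7119 and 9052 in cKO thymus, a difference of -2.61 ± 0.37 (adjusted p = 0.0069). Its near-identical relative Ctla2b could share reads with it. Pde4d, a phosphodiesterase that breaks down cyclic AMP, was at 83.5, 175 and 127 against 1302, 2646 and 1684 (-3.86 ± 0.65, adjusted p = 0.018). These groups were well apart in every library. Cemip2, a cell surface hyaluronidase, was at 132, 115 and 43.0 against 1752, 2106 and 2853 (-4.64 ± 0.77, adjusted p = 0.018).

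The sialyltransferases St6gal1 and St8sia1, which add sialic acid to glycoproteins and to gangliosides, both fell. St6gal1 was at 357, 27.8 and 24.9 in cKO liver and 3753, 952 and 2012 in cKO thymus (-4.91 ± 0.92, adjusted p = 0.026), with liver replicate 1 well above the other two. St8sia1 was at 0, 0.988 and 11.2 against 796, 1040 and 1341, from 13 reads in liver and 3708 in thymus (-8.48 ± 1.62, adjusted p = 0.028). Itm2a, a membrane protein of activated and developing T cells, was at 607, 514 and 1082 against 4596, 5907 and 3680 (-2.73 ± 0.51, adjusted p = 0.026). The cofilin phosphatase Ssh2, the dystrophin relative Utrn and Tmem245 fell by 1.66, 1.13 and 1.65 on the log2 scale, with adjusted p of 0.026, 0.036 and 0.036.

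A set of genes was read in cKO liver and hardly at all in cKO thymus. A gene below 10 in all 3 cKO thymus libraries was tested only if all 3 cKO liver libraries reached 10. The direction and the lack of overlap of such genes were therefore set by that limit. The same holds in reverse for genes below 10 in all 3 cKO liver libraries. Nhsl2 was at 1737, 1172 and 2160 in cKO liver and 1.03, 0 and 2.16 in cKO thymus, from 5508 and 4 reads (9.78 ± 1.52, adjusted p = 0.011). Tmem273 was at 832, 1531 and 1009 against 1.03, 29.0 and 1.43 (7.69 ± 1.38, adjusted p = 0.023), the pseudogene Gm4956 at 1289, 1440 and 2485 against 3.08, 0.923 and 36.8 (7.96 ± 1.46, adjusted p = 0.024), and Glipr2 at 503, 727 and 1026 against 3.08, 12.1 and 2.90 (6.93 ± 1.38, adjusted p = 0.036). Tmem273 and Gm4956 were also high in control liver and low in control thymus, whereas Nhsl2 was between 0 and 7.70 in all 6 control libraries.

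For the sparsest genes a ratio of reads is given in place of the fitted difference, scaled for depth and with a 95% counting interval that covers counting error only. The ratio of cKO liver to cKO thymus was 1460 (262 to 57900) for the antisense gene Gm16142, with 1264 reads against 1; its cKO liver values were 639, 112 and 180, 1038 of the liver reads came from replicate 1, and without it the ratio was 586. It was 587 (105 to 23200) for Sult5a1, a sulfotransferase with 507 reads against 1, and 820 (147 to 32400) for the amino acid transporter Slc6a20a, with 708 against 1. It was 375 (66.9 to 14900) for the podosome adaptor Sh3pxd2b, with 324 against 1. These ratios rest on a single thymus read each, hence the wide intervals. Prdm16, a zinc-finger regulator, had 656 reads against 2 (380, 105 to 3140) and Cfap54, a cilium protein, 897 against 3 (346, 118 to 1680); Cfap54 was present in all control libraries, with 2615 reads in liver and 1447 in thymus. Against a floor of 3 reads in each library, the receptor gene Notch3 (327 reads against 0) was at least 33-fold higher in liver, and the antisense gene Gm16316 (412 against 0) at least 46.7-fold higher.

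In the other direction Tuba8, a tubulin, had 0 reads in cKO liver and 846 in cKO thymus and was at least 31.9-fold higher in thymus, and Cped1 had 1 against 1654, a ratio of thymus to liver of 1430 (256 to 56500). The adjusted p of these sparse genes ran from 0.023 for Sult5a1 to 0.047 for Prdm16. Prdm16 passed in 8 of 25 alternative fits, Notch3 in 9 of 24, Sh3pxd2b in 11 of 25 and Tuba8 in 11 of 26. Cped1, Slc6a20a, Sult5a1 and Cfap54 passed in 14 of 26, 16 of 25, 17 of 25 and 20 of 25. In the fit to the 6 cKO libraries alone Sult5a1, Slc6a20a, Prdm16, Cfap54, Sh3pxd2b, Notch3 and Tuba8 did not pass. The sources do not say whether counting used strand, so reads of the antisense genes Gm16142 and Gm16316 cannot be told apart from those of genes on the opposite strand. By a rule set after the values were seen (at least 50 in all 3 libraries of 1 group and at most 2 reads in each of the other 9), 5 genes were seen only in cKO liver, namely Sult5a1, Slc6a20a, Sh3pxd2b, Gm16316 and Gm16142, against 3 only in control liver and 0 in each thymus group. With the same limits between tissues alone, 16 genes were seen in cKO liver and not in cKO thymus, and 8 the other way. In control cells these counts were 21 and 2. All of these counts are out of the 14004 genes with deposited values. The read limit is not the same value in every library. A single read is worth 6.663 units in cKO liver replicate 2 and 6.056 in control liver replicate 3, against 0.737 to 1.253 in the thymus libraries. The counts of the 2 directions therefore rest on unequal limits.

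Cell cycle genes had higher values in liver, and 0 passed in the 12-library limma fit or with edgeR and 2 with DESeq2. In 8 of the other limma fits 1 to 4 members passed; Mki67 passed in 7 of the 29 alternative fits, among them the one without cKO thymus replicate 3, and Top2a in 4, among them the one in the 6 cKO libraries alone. All 34 tested had a positive difference, with a median of 1.96 against 0.07 for all genes, and 11 had an unadjusted p under 0.05. Mki67, the proliferation marker, was at 11729, 11919 and 32494 in cKO liver and 3150, 1827 and 9190 in cKO thymus, with cKO liver replicate 3 and cKO thymus replicate 3 the highest of their groups (2.14 ± 0.50, adjusted p = 0.081). Top2a was at 7300, 4763 and 14991 against 908, 195 and 2550 (3.39 ± 0.93, adjusted p = 0.16), and Ccnd2 overlapped (0.14 ± 0.22). Across the 29 alternative fits 32 to 34 members had a positive difference and the median lay between 1.48 and 2.17. The control cells had a median of 1.87 for the same genes.

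**Figure D4:**
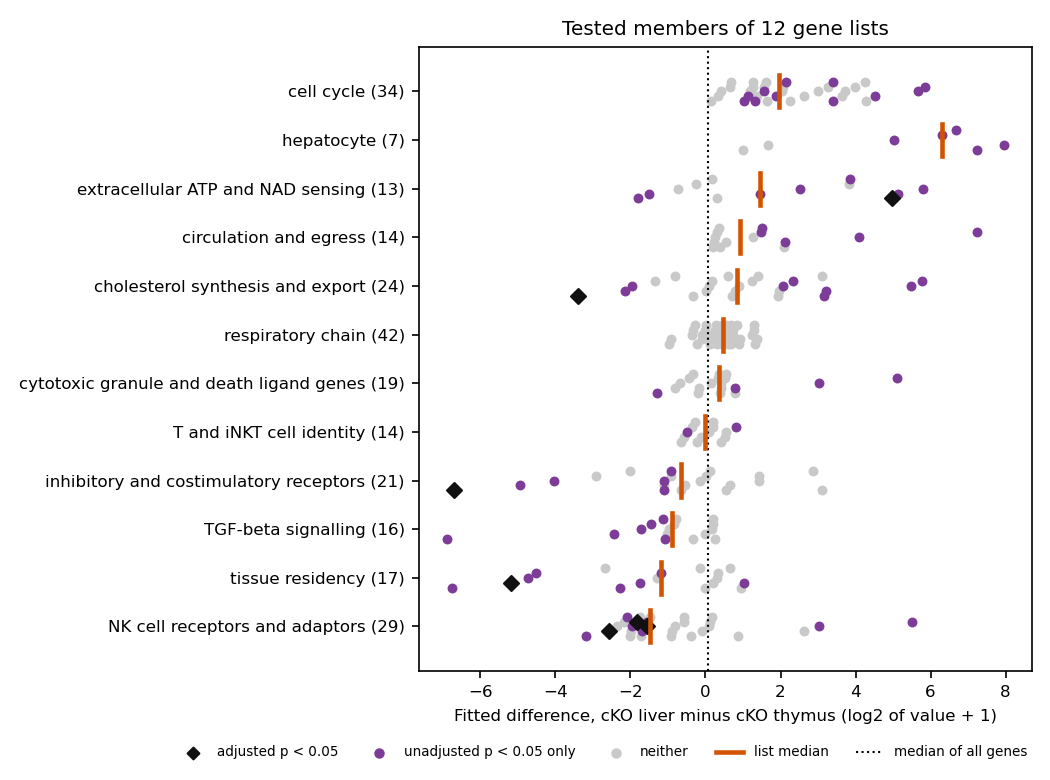
Fitted cKO liver minus cKO thymus difference (log2 of value + 1) of each tested member of 12 gene lists, with the number tested in brackets; orange bars are list medians and the dotted line is the median of all genes, 0.07. All 34 cell cycle genes and all 14 circulation genes lie above 0, and the NK receptor, residency and TGF-beta medians lie at -1.48, -1.19 and -0.90.

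The same tissue comparison in control cells, which shares no library with the cKO comparison but shares its estimate of spread, called 71 genes (0.605%), 37 higher and 34 lower in liver. Of the 35 cKO calls 12 were also called in control cells, all in the same direction, which is 34.3% of the cKO list and 16.9% of the control list, and 28 of the 29 cKO calls with more than 3 reads in control cells had the same sign (58.6% of all genes tested did); the other 6 calls had 0 or 1 control reads, where the sign rests on the values deposited for 0 reads. The shared calls were Gm4956, Tmem273, Art2a-ps and Nabp1, higher in liver, and Klrd1, Ssh2, Klrk1, Il7r, Klra5, Itm2a, Abca1 and Itgae, lower. Among the 29 the exception in sign was Izumo1r.

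A test of whether the tissue difference itself differed between genotypes called 1 gene, Styk1 (0.00852% of the genes tested; 660 at an unadjusted p under 0.05; edgeR called 1 and DESeq2 67). Styk1, a kinase-like membrane protein, was at 3528, 2812 and 1628 in cKO liver and 16111, 10136 and 7747 in cKO thymus, a difference of -2.10 ± 0.70 that did not pass within cKO cells (adjusted p = 0.31; 0.013 in the fit to the 6 cKO libraries alone). In control liver it was at 0, 5.98 and 0.889, from 7 reads, and in control thymus at 3610, 4717 and 8600. The control difference was thus the larger, -11.12 ± 0.70, and the difference of differences was 9.03 ± 0.99 (adjusted p = 0.00044). Styk1 (chr6:131299142-131353597) lies just past the last Klr gene of the natural killer complex.

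The genes that came next in that test did not pass. Klra1 was at 5020, 3811 and 4863 in cKO liver and 3750, 5713 and 3528 in cKO thymus, but at 466, 461 and 274 in control liver and 2849, 3519 and 2840 in control thymus (3.07 ± 0.53, adjusted p = 0.10). Gzmb, the granzyme described above, was at 7927, 5937 and 10279 in control liver and 15046, 17618 and 14109 in control thymus, lower in liver where cKO liver was higher (1.76 ± 0.34, adjusted p = 0.17). Izumo1r, given above, ranked between Klra1 and Gzmb, with the same adjusted p as Gzmb. Flna, Il2rb, Gzma, Ttc41, Nhsl2 and Sike1 had an adjusted p of 0.53.

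**Figure D5:**
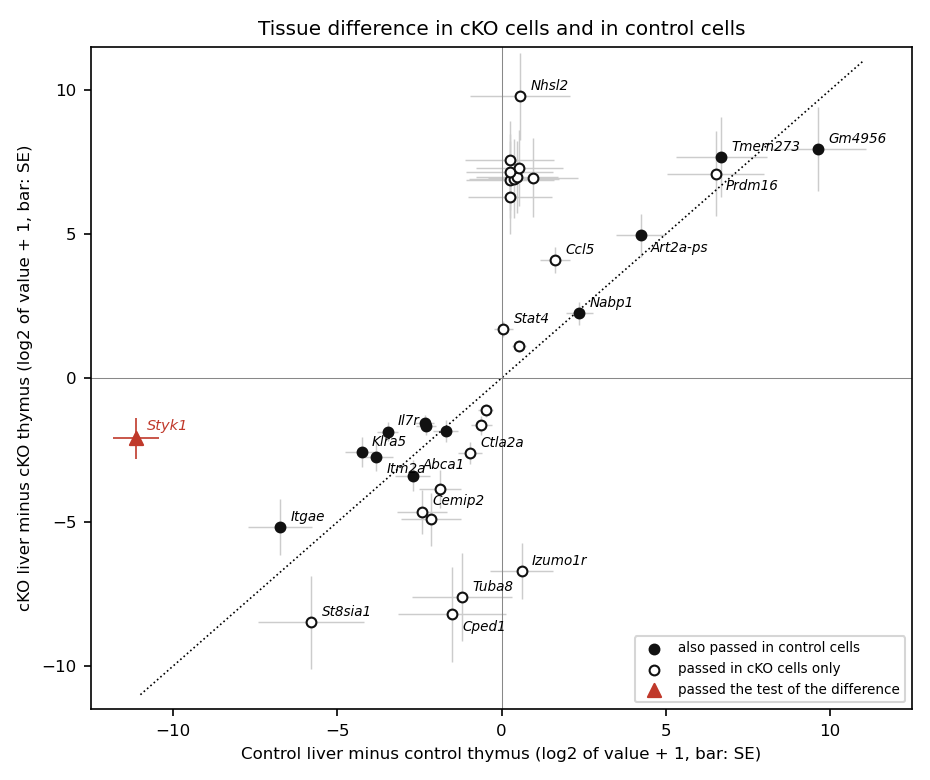
Fitted liver minus thymus difference in cKO cells (vertical) against that in control cells (horizontal), both log2 of value + 1 with SE bars, for the 35 genes called in cKO cells and for Styk1. Filled points also passed in control cells, the dotted line marks equal differences, and the column of open points near 0 on the horizontal axis holds genes such as Nhsl2, near 0 in every control library, and Cfap54, read in every control library of both tissues.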

How the data were processed

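RNA-seq was done on total RNA from sorted iNKT1 cells of 4 groups with 3 libraries each (RNeasy kit, Nugen Ovation Ultralow libraries, per the labels' protocols). Tools and build, per the submitters' processing notes and without role or order, were STAR, TopHat2 2.1.0, Trimmomatic 0.33, HTSeq 0.6.1, DESeq2 and mm10. The authors deposited 1 table of normalised signal per Ensembl gene, whose exact scaling the sources do not state. The values follow a negative binomial adjustment with a dispersion of 1.43; inverting it gave whole reads (within 0.1 read) for 96.8% of values, 91.3% to 100% by library, so tests on these recovered reads are alternatives only. Read totals were 3205426 to 43435706. Symbols came from GENCODE vM21 (13363 of 14004 genes, 95.4%), on GRCm38.

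On log2(value + 1), a scale that understates low genes, limma 3.58.1 (R 4.3.3) tested each difference with all 12 libraries in 1 model of 4 group means (8 residual and 9.9 prior degrees of freedom, variance trend, Benjamini-Hochberg adjustment, threshold 0.05). edgeR 4.0.16 and DESeq2 1.42.0 served as alternatives, beside other scalings, filters, pseudocounts, replicate blocks and left-out libraries. The procedure was run on simulated reads whose spread was set by hand and not fitted to these libraries, so its error rate here is not known. Replicate libraries correlated at 0.709 to 0.857 within cKO groups, so none was a copy of another. Genes and lists were chosen with earlier results of these data known. Named are Ets1, Tbx21, up to 15 each of the largest non-overlapping rises and falls with a mean of at least 50 (predicted genes and pseudogenes left out, though shown with the called genes), up to 6 called and 3 abundant genes per list, and 10 genes of the genotype test. Fewer than 15 rises met that rule, so all that did are named. Some genes are not reported here.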

Additional observations from a re-analysis of the deposited data

Results flagged for a closer look

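Styk1 stood out because its tissue difference was not the same in the 2 genotypes: the cKO difference minus the control difference was 9.03 on the log2 scale, and the test of that difference itself passed (limma, adjusted p = 0.00044). Within liver every cKO library, at 1628 to 3528, lay above every control library, at 0 to 5.98. Within thymus the genotypes overlapped, at 7747 to 16111 in cKO and 3610 to 8600 in control. The difference between the genotypes' tissue differences passed in all 27 alternative fits that give this test.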

How the results depend on the processing

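The count of 35 genes depended strongly on the processing, while no named gene changed direction with a call. Leaving out 1 library at a time, controls included, gave 3 to 52 genes for the cKO comparison, 1 to 10 for the difference of tissue effects (1 in the full fit; 10 without control thymus replicate 3) and 28 to 397 for control cells (71 in the full fit; 397 without control thymus replicate 3). Of the cKO libraries, removal of cKO liver replicate 3 or cKO thymus replicate 2 left 3 genes. In the cKO comparison there were 62 genes in the 6 cKO libraries alone, 93 after quantile normalization, 63 with a pseudocount of 8, 150 with sample quality weights, 18 with edgeR, 193 with DESeq2 and 3 without the 2 libraries under 5 M reads, a setting chosen after seeing the data. For the difference of tissue effects TMM scaling gave 2, quantile normalization 4, no variance trend 11 and DESeq2 67. For control cells no variance trend gave 43, DESeq2 410 and removal of the 2 shallow libraries 20. The cause was not tested. Correlations of the deviations of same-numbered libraries were -0.004, 0.051 and 0.075 in cKO cells, where replicates 2 and 3 but not 1 correlated best with their own number, and the labels do not say what a shared number means; a replicate block gave 23 genes, and 91 within the 6 cKO libraries. Depth limits the low genes: in cKO liver replicate 2 a gene without a read has a median value of 0.835. List medians moved by over 1.5 times, beside those given above, as follows. Without cKO thymus replicate 1 the cholesterol median was 0.50, the glycolysis median 0.29 and the cytokine and chemokine median 0.54; the last was 0.38 without cKO liver replicate 3 and 0.26 to 0.56 with quantile normalization, a pseudocount of 8 or a filter at 50. Without cKO thymus replicate 2 the cytotoxic median was 0.17, the respiratory chain median 0.30 and the glycolysis median 0.86. The inhibitory and costimulatory receptor median was -0.35 with no filter or a filter over all 12 libraries, and the circulation median 0.56 with no filter and 0.59 with edgeR. The medians of the memory, type I interferon and T and iNKT cell identity lists lay near 0 and changed sign when single cKO libraries were left out.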

Other observations

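Immediate early genes moved both ways without passing: of 22 tested, 8 had a positive and 14 a negative difference (median -0.33), with 4 on each side at an unadjusted p under 0.05. The median turned to 0.12 without cKO liver replicate 1 and was -0.78 and -0.16 without cKO liver replicate 3 and cKO thymus replicate 3. Egr1, which T cell receptor signals induce, was at 3917, 1574 and 3129 in cKO liver and 3745, 5754 and 6887 in cKO thymus (-0.98 ± 0.42, adjusted p = 0.55). The metabolic lists leaned towards liver, again with 0 calls: 15 of 18 glycolysis genes (median 0.54) and 33 of 42 respiratory chain genes (median 0.46) had a positive difference, against a median of 0.07 for all genes. Gapdh was at 8587, 10692 and 7466 in cKO liver and 3108, 6440 and 4046 in cKO thymus (1.03 ± 0.32, adjusted p = 0.24). The 31 type I interferon response genes had a median of -0.06, with 14 positive and 17 negative differences, and the median's sign changed without cKO thymus replicate 2 or 3.

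Igkc, an antibody light chain gene of B and plasma cells, was at 12946 in cKO liver replicate 1 and at 27.7 and 0.837 in the other two cKO liver libraries, against 1.86 to 10.3 in cKO thymus. Ighm, the antibody heavy chain gene, was at 1983, 1081 and 1340 in liver and 1515, 5687 and 4114 in thymus.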
